A study of Mus musculus with 8 samples.

Results

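The alcohol, aldehyde and ketone oxidoreductases described here are the genes of the array whose platform symbol begins with Aldh, Adh, Akr, Dhrs or Hsd17b followed by a digit. This rule gave 57 of the 16593 genes with a named probe, measured by 87 of the 25697 probes. The Aldh family had 20 genes, the Adh family 4, the Akr family 14, the Dhrs family 9 and the Hsd17b family 10. They were measured in cells of renin lineage (CoRL), the juxtaglomerular and related vascular cells that make renin or descend from cells that made it, sorted by ZsGreen fluorescence from the kidney cortex of 8 mice. In the first group, 4 Ren1cCre×Rs-ZsGreen-R mice with focal segmental glomerulosclerosis (FSGS) had received sheep anti-glomerular antibody into the peritoneum, 12 mg for every 20 g of body weight in each of 2 doses 24 h apart, which depletes podocytes, and were killed 5 days after the last dose. In the second group, 4 uninjured mice of the same strain and matched in age received no antibody. All 8 mice carried Cre recombinase under the renin regulatory region and a ZsGreen cassette at the Rosa26 locus that Cre switches on for good, so the sort takes cells that once made renin as well as those that make it. Each mouse gave 1 amplified RNA sample and 1 Illumina MouseRef-8 v2.0 BeadChip array.

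Aldehyde dehydrogenases (Aldh) oxidize aldehydes to acids with NAD or NADP, and in kidney tubules many of them take part in breaking down amino acids, fatty aldehydes and folates. Alcohol dehydrogenases (Adh) interconvert alcohols and aldehydes, while aldo-keto reductases (Akr) mostly reduce aldehydes, sugars and keto steroids with NADPH. The Dhrs and Hsd17b genes encode short-chain dehydrogenases, which act on retinoids, steroids and acyl-CoA intermediates in the endoplasmic reticulum, peroxisomes and mitochondria.

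The sequences before the start sites are shown for the 5 genes of the families that passed the lenient threshold given below, chosen for that alone. RefSeq promoters (250 bases before to 50 bases after the start, build GRCm38.p6) were matched for 47 of the 57 genes. Each sequence is read 5′ to 3′ on the strand of its gene, with capitals for matches on either strand to any of 5 motifs that were searched for. These were the half-site of HNF1 factors, GTTAAT, and the element of estrogen-related receptors, AAGGTCA. The search also covered the PU.1 element, written GAGGAAG. The last motifs were the GC box, GGGCGG, and the CCAAT box by its own letters. No 2 of these motifs overlap in the 5 sequences. The intervals are chr13:4059341-4059640 on the plus strand for Akr1c14, chr1:169969156-169969455 on the minus strand for Hsd17b7, chrX:152001646-152001945 on the plus strand for Hsd17b10, chr19:3929729-3930028 on the minus strand for Aldh3b1 and chr12:72664779-72665078 on the minus strand for Dhrs7.
Akr1c14: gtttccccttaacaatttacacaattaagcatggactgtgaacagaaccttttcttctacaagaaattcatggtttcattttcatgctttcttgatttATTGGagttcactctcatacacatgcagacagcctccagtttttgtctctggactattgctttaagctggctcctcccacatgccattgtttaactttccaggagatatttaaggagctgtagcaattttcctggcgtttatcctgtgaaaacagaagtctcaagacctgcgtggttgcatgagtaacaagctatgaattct
Hsd17b7: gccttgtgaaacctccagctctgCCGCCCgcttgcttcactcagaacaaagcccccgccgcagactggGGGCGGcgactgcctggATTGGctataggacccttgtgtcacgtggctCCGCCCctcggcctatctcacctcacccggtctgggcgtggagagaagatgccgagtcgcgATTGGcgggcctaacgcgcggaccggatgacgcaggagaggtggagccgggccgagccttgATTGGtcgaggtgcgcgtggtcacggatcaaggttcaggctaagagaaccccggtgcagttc
Hsd17b10: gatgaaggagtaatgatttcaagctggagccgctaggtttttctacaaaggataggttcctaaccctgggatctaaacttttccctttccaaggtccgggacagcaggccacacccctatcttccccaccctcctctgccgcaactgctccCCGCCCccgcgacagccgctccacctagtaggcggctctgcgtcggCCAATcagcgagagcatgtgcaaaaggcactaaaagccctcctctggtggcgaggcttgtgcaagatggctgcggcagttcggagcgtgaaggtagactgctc
Aldh3b1: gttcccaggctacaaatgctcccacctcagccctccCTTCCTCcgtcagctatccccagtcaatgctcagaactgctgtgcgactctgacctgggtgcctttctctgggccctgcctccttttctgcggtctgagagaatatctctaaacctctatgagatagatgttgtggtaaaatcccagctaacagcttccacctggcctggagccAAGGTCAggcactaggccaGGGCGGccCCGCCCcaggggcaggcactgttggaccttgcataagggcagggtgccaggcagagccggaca
Dhrs7: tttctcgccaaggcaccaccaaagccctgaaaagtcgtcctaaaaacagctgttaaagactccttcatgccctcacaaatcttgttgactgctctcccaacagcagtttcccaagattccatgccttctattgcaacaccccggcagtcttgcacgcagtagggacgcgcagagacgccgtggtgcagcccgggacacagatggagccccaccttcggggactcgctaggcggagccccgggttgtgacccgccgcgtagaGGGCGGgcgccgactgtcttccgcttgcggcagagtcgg

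In the Akr1c14 sequence the search found a single CCAAT box, read on the other strand from -152 to -148, where the start base is 1 and the base before it -1. The Hsd17b7 sequence held 3 GC boxes and 3 CCAAT boxes. The Hsd17b10 sequence held a GC box from -99 to -94 and a CCAAT box from -53 to -49, and the Dhrs7 sequence a GC box from 12 to 17. The Aldh3b1 sequence held a PU.1 element from -214 to -208, an estrogen-related receptor element from -40 to -34 and 2 GC boxes. The HNF1 half-site was in the promoters of 4 of the 47 matched members and in 7.1% of 32851 RefSeq promoters. The other shares were 3 members and 4.72% for the estrogen-related receptor element, 9 members and 13.6% for the PU.1 element, 21 members and 35.7% for the GC box and 27 members and 37.4% for the CCAAT box. A member was counted if any promoter of its gene matched, while the percentages are of single promoters, so the units differ. A match describes letters and says nothing about binding.

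Probes detected above the negative control beads (detection p under 0.01) numbered 11153 to 11700 on the day 5 FSGS arrays and 5793 to 12052 on the uninjured arrays, where replicate 1 had the fewest. The lowest detected log2 level was 5.67 to 5.79 on the day 5 arrays. It was 7.34, 6.51, 6.07 and 5.59 in uninjured replicates 1 to 4. A gene at 1 level could thus be detected on a day 5 array and missed on an uninjured one. Of the 57 genes, 30 to 34 were detected on each day 5 array and 27 to 32 on each uninjured array. Of 14 measured markers of renin lineage, smooth muscle and pericytes, Acta2, Rgs5 and Gucy1a1 were detected on all 8 arrays, while Tagln, Cnn1 and Pdgfrb were detected on none, and Ren1 was not analysed here. On day 5, 6 of the 14 had a lower and 8 a higher mean (median log2 change 0.17). Their mean log2 level was 5.86 to 6.71 on the day 5 arrays and 5.97 to 6.35 on the uninjured arrays. Only Des passed an adjusted p of 0.05 (limma), at a log2 change of 1.51 with overlapping groups. Markers of several other cell types differed between the groups. All 17 measured proximal tubule markers had a lower mean on day 5 (median log2 change -1.24), with a mean log2 level of 7.90 to 10.15 on the day 5 arrays and 10.51 to 10.80 on the uninjured arrays. All 18 measured macrophage and monocyte markers had a higher mean on day 5 (median log2 change 2.68), with a mean log2 level of 8.84 to 10.40 on the day 5 arrays and 7.02 to 7.65 on the uninjured arrays. Markers of the thick limb, distal tubule and collecting duct had a lower mean on day 5 in 12 of 13 genes (median log2 change -0.85, mean log2 level 6.61 to 7.45 on day 5 arrays and 7.53 to 8.30 on uninjured arrays). Fibroblast markers had a higher mean in 8 of 8 (1.30, levels 5.67 to 6.79 on day 5 arrays and 4.8 to 5.38 on uninjured arrays). The same held for 11 of 11 endothelial markers (0.64, levels 6.41 to 7.73 on day 5 arrays and 5.89 to 6.70 on uninjured arrays) and 8 of 9 lymphocyte markers (0.57, levels 6.02 to 6.72 on day 5 arrays and 5.00 to 5.77 on uninjured arrays). Podocyte markers had a higher mean in 5 of 6 (0.46, levels 6.68 to 7.74 on day 5 arrays and 6.48 to 6.92 on uninjured arrays). Of 8 parietal epithelium markers, 4 had a lower and 4 a higher mean (-0.18, levels 5.96 to 6.62 on day 5 arrays and 6.28 to 6.63 on uninjured arrays). Among the proximal tubule markers each was detected on some array, and among the macrophage markers Msr1 was detected on none.

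Most of the detected oxidoreductase genes had a lower mean level in CoRL of day 5 FSGS mice than in CoRL of uninjured mice. Of the 57 genes, 48 had a lower mean on day 5 and 9 a higher one, and the median log2 change, day 5 minus uninjured, was -0.34. Over all 16593 genes 55.3% had a lower mean and the median log2 change was -0.03. The 57 include 19 genes detected on no array, whose differences carry no order. Of the 29 members detected on every array of 1 or both groups, 26 were lower in the mean and 3 higher. The median of their log2 changes was -0.64. Among all 6976 genes detected in this way, 48% were lower in the mean, and the median was 0.03. The 4 day 5 levels lay below all 4 uninjured levels for 10 members (17.5%), against 9.61% of all genes, and above all of them for 2 members, against 10.4% of all genes. The families had median log2 changes of -0.41 (Aldh), -0.32 (Adh), -0.42 (Akr), -0.28 (Dhrs) and -0.31 (Hsd17b), and stayed below 0 under each alternative processing that was run, although their size depended on the scaling of the arrays.

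**Figure D1:**
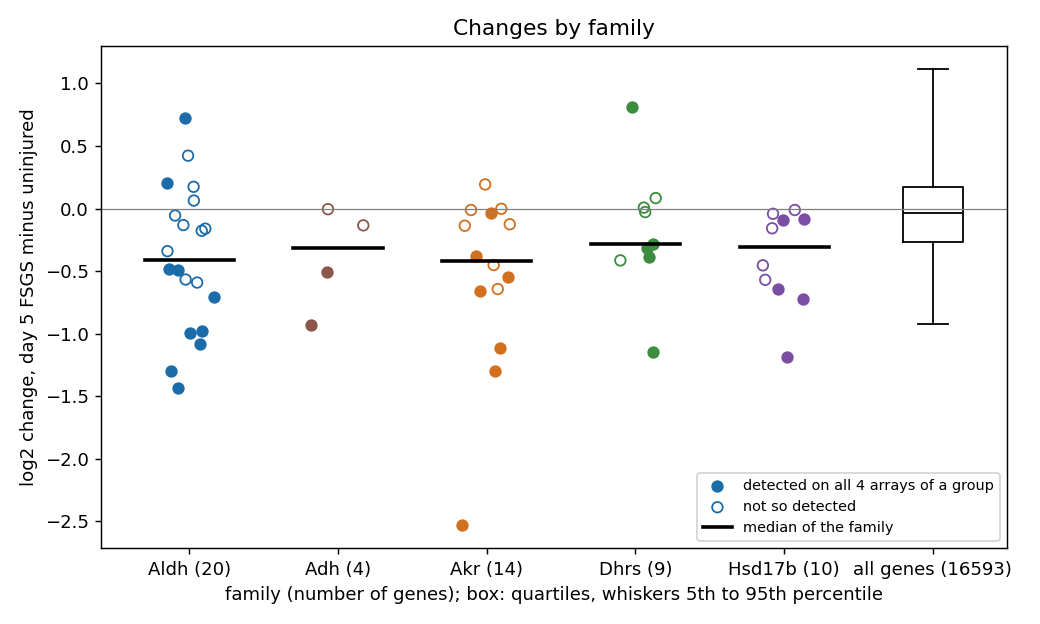
Each point is the log2 change (day 5 FSGS minus uninjured, vertical axis) of 1 gene, by family, with filled points for genes detected on all 4 arrays of at least 1 group and a bar at the family's median; the box gives the quartiles of all 16593 genes and its whiskers the 5th and 95th percentiles. The medians of the 5 families lie between -0.42 and -0.28, and the largest changes in both directions belong to detected genes.

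No member passed the threshold of the study, an adjusted p of at most 0.01 (limma, Benjamini-Hochberg over 16593 genes), in either direction, whereas 0.398% of all genes were called lower and 1.91% higher. At an unadjusted p under 0.05, 18 members were lower, where 15.5% of all genes were, and 2 higher, where 15% were. The Bayesian test of the methods, rebuilt from its formula, called 6 members lower (3.89% of all genes) and 0 higher (5.98%) at 0.01. At a lenient adjusted p of at most 0.05, limma placed 3 members lower (Akr1c14, Hsd17b7 and Hsd17b10), where 5.81% of all genes passed, and 2 higher (Aldh3b1 and Dhrs7), where 8.52% passed. The share of the members lower at 0.05 was near that of all genes, and the share higher was below it. Scaling the arrays to a common median in place of quantile normalization gave 1 member lower and 2 higher at 0.05, with 2.41% of all genes lower and 10% higher. Scaling to the 75th percentile gave 27 members lower and 2 higher, with 26.9% of all genes lower and 7.37% higher and a median log2 change of all genes of -0.52. Without day 5 FSGS replicate 3, 16 members were lower and 3 higher, and the shares of all genes were also larger, 10.6% and 11.8%. In what follows, rose and fell refer to the 0.05 threshold.

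Akr1c14, which encodes a 3-alpha-hydroxysteroid dehydrogenase, fell the most of the 57 genes and had the 4th largest fall of all 16593. Its log2 level was 7.06, 6.29, 8.03 and 5.05 in day 5 FSGS replicates 1 to 4, against 8.63, 9.36, 8.98 and 9.59 in uninjured replicates 1 to 4. All day 5 mice lay below all uninjured mice, and the transcript was detected in 3 of 4 day 5 mice and in 4 of 4 uninjured mice. The log2 change was -2.53 (SE 0.57, 95% interval -3.84 to -1.23, adjusted p = 0.0248). Its 2 probes gave -2.50 and -2.56. The size depended on the background correction, with a change of -1.49 when none was made and -1.43 in the authors' table. The adjusted p was above 0.05 without uninjured replicate 2, 3 or 4 (0.0678, 0.0569 and 0.0587) and without day 5 replicate 1 or 2 (0.0534 and 0.0767), while the change was -2.01 or lower with any 1 mouse left out.

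The other Akr genes with the largest differences did not pass. Akr1c21, a 3(17)-alpha-hydroxysteroid dehydrogenase abundant in mouse kidney, had log2 levels of 10.94, 10.49, 11.58 and 9.32 in day 5 mice and 11.53, 11.76, 12.13 and 12.11 in uninjured mice. Only day 5 replicate 3 reached the uninjured range, and the change was -1.30 (SE 0.43, adjusted p = 0.0796). Akr7a5, a reductase of succinic semialdehyde and of dialdehydes made from aflatoxin, had day 5 levels of 7.86, 7.17, 8.16 and 6.14, all below the uninjured 8.17, 8.61, 8.52 and 8.49 (change -1.12, adjusted p = 0.0958). Akr1a1, the aldehyde reductase that in mice supplies gulonate for ascorbate synthesis, had 3 day 5 levels of 10.65 to 11.22 and 11.71 in replicate 3, against 11.65 to 11.76 in uninjured mice (change -0.55, adjusted p = 0.107). All 3 of its probes were lower, by -0.63 to -0.50. Akr1c19 changed by -0.66 (adjusted p = 0.347) and Akr1e1, a 1,5-anhydrofructose reductase in mice, by -0.38 (adjusted p = 0.543), both with overlapping groups. Akr1b10 differed by -0.03 (95% interval -0.23 to 0.17), and by 0.096 on its brighter probe, the only one of its 2 that was detected.

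RefSeq places Akr1e1 and the 7 numbered Akr1c genes (Akr1c6, Akr1c12, Akr1c14, Akr1c18, Akr1c19, Akr1c20 and Akr1c21) on mouse chromosome 13. Of these, Akr1c14, Akr1c19, Akr1c21 and Akr1e1 were seen on every array of 1 or both groups, with changes of -2.53 to -0.38, and the other 4 were detected on no array. The Akr1c genes are close paralogs, and how far their probes tell them apart was not tested. Akr1cl, on chromosome 1, was detected on no array.

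No Aldh gene fell at 0.05. The largest differences were in enzymes of amino acid and folate breakdown. Aldh6a1, the methylmalonate semialdehyde dehydrogenase of valine breakdown in mitochondria, had log2 levels of 11.06, 10.41, 11.91 and 9.11 in day 5 mice and 11.77, 12.31, 11.99 and 12.16 in uninjured mice. Day 5 replicate 3 lay within the uninjured range and replicate 4 was the lowest (change -1.44, SE 0.52, adjusted p = 0.100). Aldh1l1, the cytosolic 10-formyltetrahydrofolate dehydrogenase, had 6.97, 6.47, 7.77 and 5.53 in day 5 mice and 7.92, 8.33, 7.77 and 7.90 in uninjured mice. All day 5 levels were below all uninjured levels, although day 5 replicate 3 and uninjured replicate 3 were only just apart (7.767 and 7.770). The change was -1.30 (SE 0.42, adjusted p = 0.0743), and its 4 probes gave -1.35 to -1.24.

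Another 4 detected Aldh genes, Aldh4a1, Aldh8a1, Aldh3a2 and Aldh5a1, also had a lower mean on day 5. Aldh4a1, which completes proline breakdown in mitochondria, averaged 10.11 ± 1.04 in day 5 mice and 11.09 ± 0.18 in uninjured mice (log2, SD, n = 4 each; adjusted p = 0.186). Aldh8a1, an enzyme of tryptophan breakdown, averaged 6.86 ± 1.17 in day 5 mice and 7.95 ± 0.29 in uninjured mice (adjusted p = 0.200). Aldh3a2, the fatty aldehyde dehydrogenase, averaged 8.97 ± 0.60 in day 5 mice and 9.96 ± 0.25 in uninjured mice (adjusted p = 0.0517). In all 3 genes the spread between day 5 mice was more than that between uninjured mice, and day 5 replicate 3 was the highest and replicate 4 the lowest of the day 5 mice. Aldh5a1, the succinic semialdehyde dehydrogenase, had all day 5 levels (6.43 to 7.56) below all uninjured levels (7.59 to 7.73), at a change of -0.71 and an adjusted p of 0.0633. Its detected probe gave -1.32 and its other probe, detected on no array, -0.09.

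Aldh2, the mitochondrial enzyme that clears acetaldehyde, had log2 levels of 11.64, 11.57, 12.03 and 11.43 in day 5 mice and 11.88, 12.29, 12.23 and 12.22 in uninjured mice. Day 5 replicate 3 exceeded uninjured replicate 1, so the groups overlapped (change -0.49, 95% interval -0.84 to -0.14, adjusted p = 0.0692). Aldh9a1, which acts in carnitine synthesis, differed by -0.49 (adjusted p = 0.23) and Aldh16a1 by 0.20 (adjusted p = 0.561).

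Aldh3b1, which oxidizes medium-chain and long-chain aldehydes such as those from lipid peroxidation, rose. Its log2 level was 7.87, 7.87, 7.51 and 8.01 in day 5 mice, against 7.13, 7.002, 7.17 and 7.07 in uninjured mice, with no overlap. The change was 0.72 (SE 0.12, 95% interval 0.45 to 1.00, adjusted p = 0.0109). The authors' table put the change at 0.39 and values with no background correction at 0.40, and the methods' Bayesian test gave an adjusted p of 0.0573. Its 3 probes differed in size, at 1.62, 0.13 and 0.42, and the brightest of them alone gave 0.13 (adjusted p = 0.689). The adjusted p stayed at or under 0.0414 with any 1 mouse left out.

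The retinaldehyde dehydrogenases Aldh1a1, Aldh1a2 and Aldh1a3, which make retinoic acid, were at or near background. Aldh1a3 was detected on no array. Aldh1a1 was detected in 2 of 4 day 5 mice and 2 of 4 uninjured mice, with log2 levels of 6.07, 4.84, 7.05 and 4.61 on day 5 and 4.49, 6.68, 6.98 and 5.06 in uninjured mice. The scatter within each group was wider than the difference of -0.16 (95% interval -1.79 to 1.47). Aldh1a2 was detected in 2 of 4 day 5 mice and in 0 of 4 uninjured mice, at a difference of 0.17 (adjusted p = 0.714) that turned to -0.16 when the arrays were scaled to their 75th percentile and to -0.07 with the brighter of its 2 probes.

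**Figure D2:**
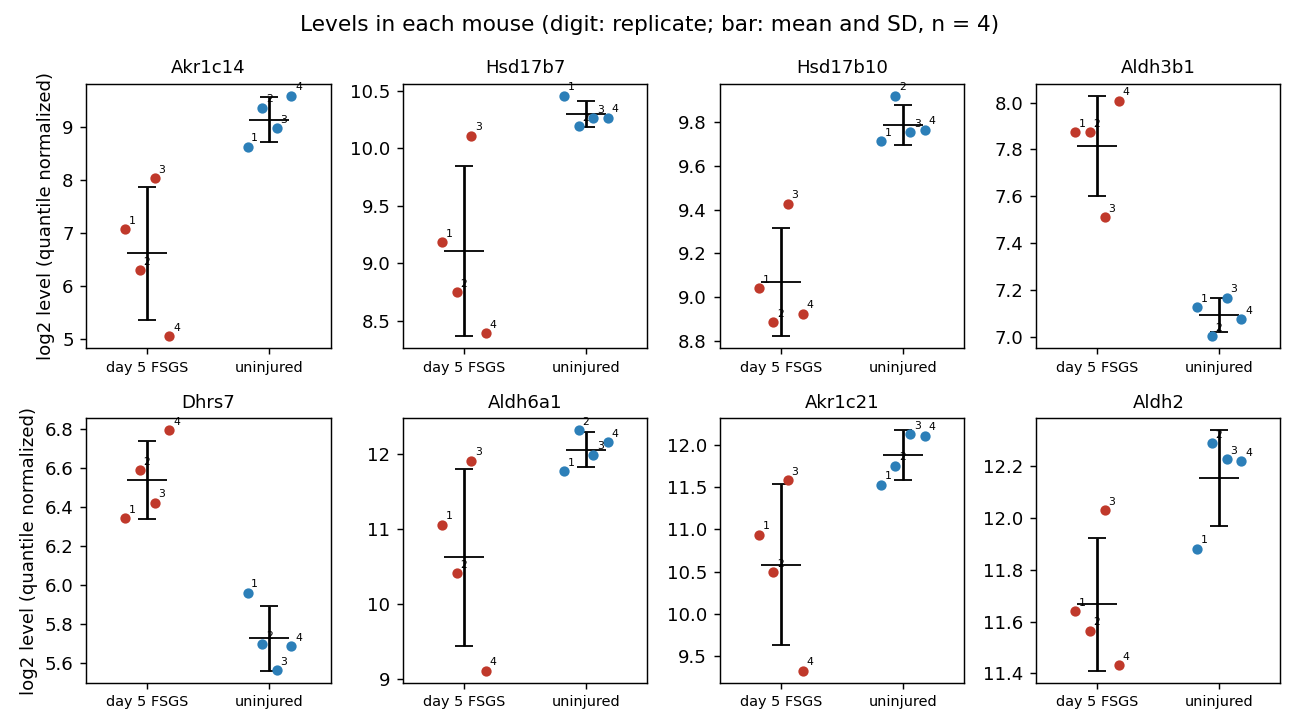
Log2 levels (vertical axes, each on its own scale) of 8 genes in the 4 day 5 FSGS mice and the 4 uninjured mice, with the replicate number beside each point and a bar for the mean ± SD. The day 5 points lie below all uninjured points for Akr1c14, Hsd17b7 and Hsd17b10 and above them for Aldh3b1 and Dhrs7, and replicate 3 is the day 5 mouse closest to the uninjured mice in each gene shown except Dhrs7.

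Of the 4 Adh genes, which RefSeq places on chromosome 3, Adh1 and Adh5 were detected on all 8 arrays, and Adh4 and Adh7 on none. Adh1, the class I enzyme that oxidizes ethanol and retinol, had log2 levels of 10.07, 9.79, 10.05 and 8.37 in day 5 mice and 10.19, 10.60, 10.70 and 10.54 in uninjured mice. All day 5 mice lay below all uninjured mice, replicate 4 well below the rest, and the change was -0.93 (SE 0.36, adjusted p = 0.125). Adh5, which oxidizes the glutathione adduct of formaldehyde, had 7.08, 7.15, 7.45 and 6.79 in day 5 mice and 7.41, 7.73, 7.51 and 7.84 in uninjured mice. Day 5 replicate 3 exceeded uninjured replicate 1, and the change was -0.50 (adjusted p = 0.0713). The Adh5 probes detected on all 8 arrays gave -0.57 and -0.86, and its other probe, detected on no array, -0.08. Over detected probes alone the change was -0.72 (limma, adjusted p = 0.0359).

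All 10 Hsd17b genes had a lower mean on day 5, but 4 of them were detected on no array and Hsd17b14 on only 1. Of the detected genes, Hsd17b4 and Hsd17b12 turned to 0.13 and 0.25 when the arrays were scaled to a common median. Hsd17b10, a mitochondrial enzyme of isoleucine breakdown that is also a subunit of mitochondrial ribonuclease P, fell with little spread between mice. Its log2 level was 9.04, 8.89, 9.43 and 8.92 in day 5 mice, against 9.71, 9.92, 9.75 and 9.77 in uninjured mice, with no overlap. The change was -0.72 (SE 0.13, 95% interval -1.03 to -0.41, adjusted p = 0.0150), a level 0.608 of that in uninjured CoRL. The adjusted p was 0.0516 without day 5 replicate 2 and 0.179 with median scaling, where the change was -0.43.

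Hsd17b7, the 3-keto reductase of cholesterol synthesis, which also makes estradiol from estrone, fell as well. Its log2 level was 9.18, 8.75, 10.11 and 8.39 in day 5 mice, against 10.46, 10.19, 10.26 and 10.27 in uninjured mice. Day 5 replicate 3 was just under the lowest uninjured mouse and the other 3 lay clearly below. The change was -1.19 (SE 0.33, 95% interval -1.93 to -0.44, adjusted p = 0.0462). This call was the least secure of the 5, with an adjusted p of 0.0839 to 0.132 without any 1 of the other 7 mice and 0.00151 without day 5 replicate 3.

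Hsd17b11, a lipid droplet enzyme, had log2 levels of 7.74, 7.70, 7.78 and 7.30 in day 5 mice, all below the 8.01, 8.77, 8.16 and 8.14 of uninjured mice. Its change of -0.64 had an adjusted p of 0.0548, and its 3 probes gave -0.72, -0.65 and -0.56. Hsd17b4, the peroxisomal multifunctional enzyme of fatty acid oxidation, differed by -0.09 (95% interval -0.58 to 0.40), and Hsd17b12, the 3-ketoacyl-CoA reductase that lengthens very long fatty acids, by -0.09 (95% interval -0.40 to 0.22). Both groups overlapped for these genes.

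Among the Dhrs genes, Dhrs7 and Dhrs4 had the largest differences, of opposite sign. Dhrs7, a reductase of the endoplasmic reticulum, rose: its log2 level was 6.34, 6.59, 6.42 and 6.79 in day 5 mice, against 5.96, 5.69, 5.56 and 5.69 in uninjured mice. All day 5 mice lay above all uninjured mice, with a change of 0.81 (SE 0.13, 95% interval 0.51 to 1.12, adjusted p = 0.0102). The size depended on the background correction, with a change of 0.28 when none was made and 0.25 in the authors' table. Its 3 probes gave 0.45, 0.90 and 1.08, of which the first was detected on all 8 arrays and the other 2 on all day 5 arrays and no uninjured array. The brightest probe alone had an adjusted p of 0.355, and with any 1 mouse left out the adjusted p of the gene was at most 0.0398.

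Dhrs4, a peroxisomal carbonyl and retinal reductase, had log2 levels of 8.05, 7.56, 8.52 and 6.60 in day 5 mice and 8.81, 8.87, 8.90 and 8.73 in uninjured mice. The groups did not overlap, but the day 5 mice spread over a wide range, and the change of -1.15 (SE 0.36) had an adjusted p of 0.0675. Dhrs7b, which acts in ether lipid synthesis, differed by -0.39 (adjusted p = 0.0841), Dhrs1 by -0.31 (adjusted p = 0.2998) and Dhrs13 by -0.28 (adjusted p = 0.288), all with overlapping groups. The Dhrs7b probes detected on all 8 arrays gave -0.47 and -0.77, and its other probe, detected in 2 of 4 mice of each group, 0.08. Over detected probes alone the Dhrs7b change was -0.62 (limma, adjusted p = 0.0129). Dhrs3, a retinaldehyde reductase, was detected on no array.

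**Figure D3:**
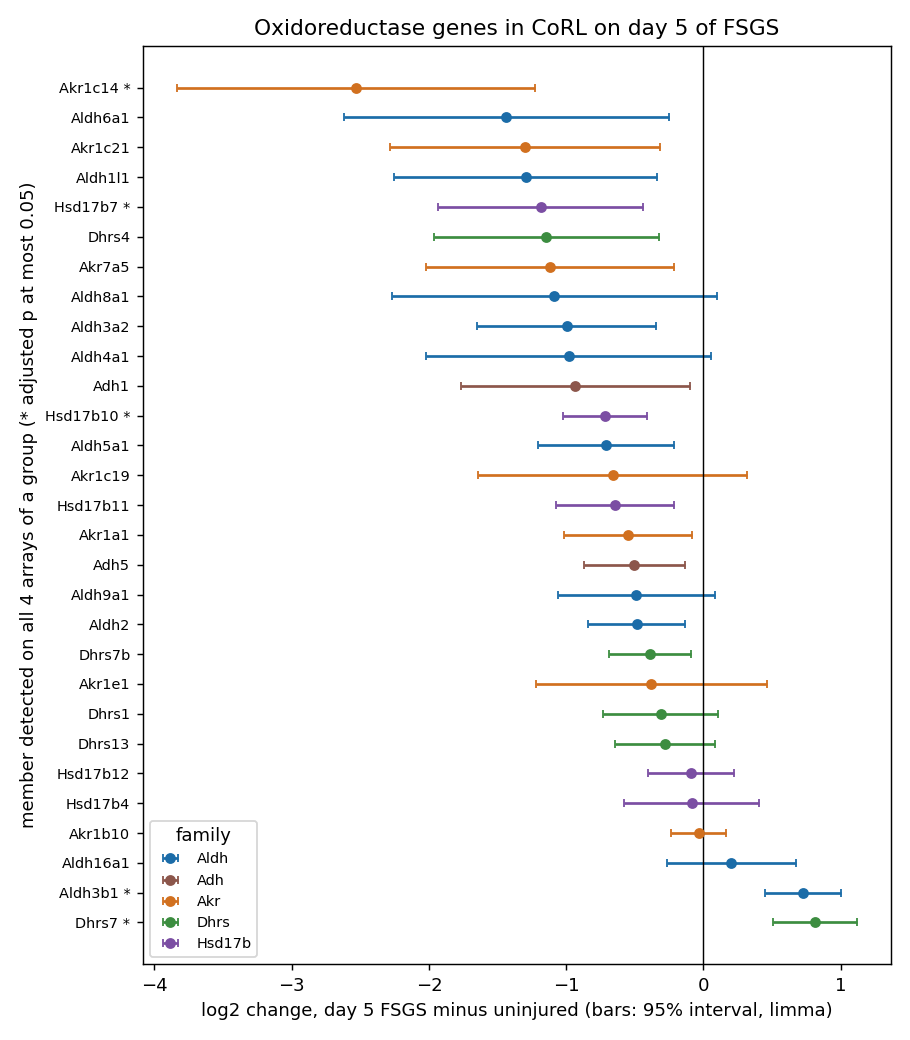
Log2 change (day 5 FSGS minus uninjured, horizontal axis) of the 29 genes detected on all 4 arrays of at least 1 group, with the 95% interval from limma, coloured by family; an asterisk marks an adjusted p of at most 0.05. Akr1c14 lies at -2.53 and Dhrs7 at 0.81, and the intervals of the 5 marked genes lie on 1 side of 0.

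Detection divided the 57 genes into 26 detected on all 8 arrays, 3 on all 4 arrays of only 1 group (Akr1c14 in uninjured mice, Dhrs13 and Hsd17b12 in day 5 mice), 9 on some arrays and 19 on none. Dhrs13 and Hsd17b12 were missed in uninjured replicate 1, at log2 levels of 7.04 and 7.13, where the lowest detected level was 7.34. Their day 5 levels were no higher than 6.62 and 7.28. The 19 undetected genes were Aldh1a3, Aldh1l2, Aldh3a1 and Aldh3b3, Adh4 and Adh7, Akr1c6, Akr1c12, Akr1c18, Akr1c20 and Akr1cl, Dhrs2, Dhrs3, Dhrs9 and Dhrs11, and Hsd17b1, Hsd17b2, Hsd17b3 and Hsd17b6. Their differences, -0.64 to 0.08, carry no order. The 9 partly detected genes were Aldh1a1, Aldh1a2, Aldh1a7, Aldh1b1, Aldh7a1, Aldh18a1, Akr1b8, Akr1d1 and Hsd17b14, with differences of -0.59 to 0.42 and none past 0.05. Akr1b3 was not analysed here. More than 1 probe measured 19 members, and the probes disagreed in sign for 8.

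The day 5 mice took a similar order in most of the detected members. Of the 29 genes seen on every array of 1 or both groups, day 5 replicate 3 was the highest day 5 mouse in 22 and replicate 4 the lowest in 20. The mean log2 level of these genes was 8.42, 8.09, 8.79 and 7.65 in day 5 replicates 1 to 4 and 8.78, 9.03, 8.83 and 8.88 in uninjured replicates 1 to 4. Replicate 3 lay within the uninjured range and the other 3 below it.

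The proximal tubule markers had the same order among the day 5 mice, with mean log2 levels of 9.68, 9.17, 10.15 and 7.90 in replicates 1 to 4. The macrophage and monocyte markers had the opposite order, at 10.03, 10.27, 8.84 and 10.40. The Akr mean over 7 detected genes ranged from 7.49 to 9.13 over the day 5 mice and the Aldh mean over 10 from 7.75 to 9.17. The Dhrs mean over 5 genes ranged only from 6.90 to 7.38. In RNA of sorted cells in bulk, fewer cells of a type and less RNA of these genes in each cell cannot be told apart, and the part that RNA of tubules, macrophages or the other cell types has in the members' differences was not tested.

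**Figure D4:**
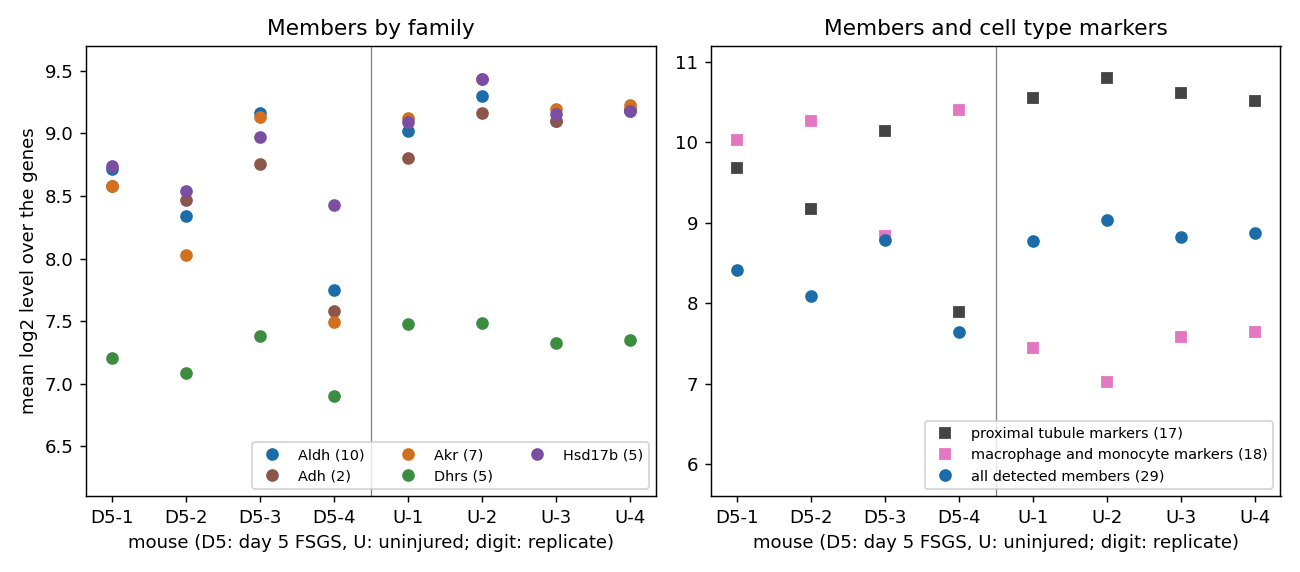
Mean log2 level (vertical axes) in each mouse, day 5 FSGS (D5) left of uninjured (U), of the detected genes of each family (left panel) and of all 29 detected genes beside the proximal tubule and macrophage markers (right panel), with the number of genes in brackets. Day 5 replicate 4 is lowest and replicate 3 highest for every family and for the proximal tubule markers, and the macrophage markers run the other way; levels are to be compared between mice within a family, not between families.

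Related enzymes outside the 5 name groups were also counted. Of 38 measured short-chain and medium-chain dehydrogenases and carbonyl reductases, 30 had a lower mean on day 5, with a median log2 change of -0.30. At 0.05, 6 fell and 3 rose, where 5.81% of all genes fell and 8.52% rose. Among those that fell were Rdh16 (-1.49) and Rdh10 (-1.17), which oxidize retinol, and Bdh1 (-1.20), the ketone body enzyme. Hpgd, which inactivates prostaglandins, rose by 1.44. Of 22 retinoid handling genes, 2 fell at 0.05, Rdh10 and the receptor Rxra (-0.85), and none rose, against the same shares of all genes. Rxra was detected in 1 of 4 day 5 mice and 2 of 4 uninjured mice, and its groups overlapped. The median log2 change of the 22 genes was -0.17, and 12 of them were detected on no array. The 4 genes listed for other aldehyde oxidation, Aox1, Aox3, Aox4 and Xdh, had none past 0.05. The largest difference was that of Xdh at 0.84 (limma, adjusted p = 0.0565), with overlapping groups. Xdh was detected in 3 of 4 day 5 mice and 0 of 4 uninjured mice, and Aox1, Aox3 and Aox4 were detected on no array.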

How the data were processed

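The authors read 8 BeadChip arrays, 1 per mouse, and deposited for each probe a linear intensity before normalization and a detection p-value set against the negative control beads. A second deposited table holds the authors' processed signal after variance stabilization and quantile normalization with lumi (its version is not given in the sources used), and it served as an alternative. Columns of no sample numbered 0. The platform table gave 1 symbol for 23978 probes and none for 1719, and no genome was used.

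Deposited intensities were converted to log2 levels by the neqc function of limma 3.58.1, run in R 4.3.3 (normexp from the detection p-values, offset of 16, quantile normalization), with no filter, and averaged over each gene's probes. Group was the only term in lmFit and eBayes, on all 8 arrays, with Benjamini-Hochberg adjustment of the p-values across 16593 genes. Genes were called at 0.01, with 0.05 as a lenient threshold. CyberT, the Bayesian test named in the methods, was recomputed from its formula (confidence 10). The fit was tested on simulated data with independent noise for each gene and array. Such data hold no shift shared by the genes of 1 mouse, so that case was not tested. Precision is limited by the 4 arrays per group, and a dim gene's fold is compressed by background. Replicate numbers 1 to 4 come from different mice and did not pair the samples. No 2 arrays held identical values.

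Genes given with values are, in each family, up to 6 detected members with the largest change, every member past 0.05, and members with known roles; Akr1b10, Aldh5a1 and Aldh9a1 were added after their values were seen; levels of different probes were not compared. Members, lists and tests were chosen with earlier results of these data known. Alternatives were other background corrections and scalings, the authors' table, detected probes only, the brightest probe, robust variances with an intensity trend, weights for arrays, the Bayesian test, the replicate block, other thresholds and leaving out each mouse. Leaving out a pair of arrays, and the 0.05 counts under each setting, were added after the data were seen. Promoters were searched with Python 3.11.15 and figures drawn with matplotlib 3.10.9.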

Additional observations from a re-analysis of the deposited data

Results flagged for a closer look

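Within each group of 4 mice, the highest or lowest value was checked for distance from the rest for the 33 genes given with values and for the means of the families and of all members, 78 groups in all, of which 4 stood out at Dixon's 95% critical value. Chance gives such a gap in about 1 in 20 groups. In day 5 FSGS replicate 4, Adh1 had a log2 level of 8.37, against 9.79 to 10.07 in the other day 5 mice. In the same mouse Hsd17b11 was at 7.30, against 7.70 to 7.78 in the other 3. In uninjured replicate 2, the mean over all 14 Akr genes was 7.29, against 7.05 to 7.08 in the other uninjured mice. The mean over all 9 Dhrs genes in that mouse was 6.40, against 6.27 in each of the other 3.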

How the results depend on the processing

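The members lower at 0.01 were 0 as reported, where 0.398% of all genes were lower. They numbered 1 without background correction (0.759% of all genes), 2 with 75th percentile scaling (2.69%), 1 in the authors' table (0.699%) and 1 over detected probes (3.1% of 6964 genes). Array weights gave 2 lower (2.9%) and the methods' Bayesian test 6 (3.89%). The looser thresholds gave 3 at an adjusted p of 0.05 (5.81%) and 18 at an unadjusted p under 0.05 (15.5%). Those higher at 0.01, also 0 (1.91%), numbered 2 with median scaling (4.33%), 1 over detected probes (11.3% of 6964 genes) and 2 with array weights (5.86%). Either looser threshold gave 2 higher (8.52% adjusted, 15% unadjusted). At 0.05, the 3 lower (5.81% of all genes) became 8 in the authors' table (6.79%), 8 without background correction (6.85%) and 1 with median scaling (2.41%). Scaling to the 75th percentile gave 27 lower (26.9%), detected probes 12 (16.6% of 6964 genes) and the brightest probe 5 (5.67%). An intensity trend gave 7 lower (5.59%), array weights 15 (10.2%) and the Bayesian test 14 (7.45%). The 2 higher at 0.05 (8.52% of all genes) became 0 with the brightest probe (8.42%) and 1 by the Bayesian test (9.39%). The replicate block gave 1 lower (2.86% of all genes) and 2 higher (5.92%) at 0.05, and 0 of either at 0.01 (0% of all genes). The numbers are shared by different mice (correlations of the deviations -0.09 to 0.11).

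Leaving out 1 mouse gave 0 to 7 members lower and 0 to 2 higher at 0.01, and 0 to 16 lower and 2 to 3 higher at 0.05. The highest of these counts came without day 5 FSGS replicate 3, and the 0 lower at 0.05 came without day 5 replicate 2. The shares of all genes moved as well. At 0.01 they were 0 to 4.31% lower and 0 to 7.18% higher, and at 0.05 they were 1.02% to 10.6% lower and 3.28% to 11.8% higher. The pair of day 5 replicate 3 and uninjured replicate 1 was also left out, chosen after seeing the data. Then 5 members were lower (3.81% of all genes) and 2 higher (6.54%) at 0.01, and 18 lower at 0.05 (10.8%).

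The median change of all members, -0.34, was -0.13 without background correction, -0.69 with 75th percentile scaling, -0.11 in the authors' table and -0.66 over detected probes. In that order the Hsd17b median was -0.12, -0.68, -0.11 and -0.64, and it was -0.16 with an offset of 50. The Aldh median was -0.70, -0.14 and -0.99 and the Adh median -0.74 and -0.83 with 75th percentile scaling, the authors' table (Aldh alone) and detected probes. The Dhrs median was -0.12 without background correction, -0.15 with median scaling, -0.50 with 75th percentile scaling, -0.11 in the authors' table and -0.34 to -0.18 with 1 mouse left out. The median of all genes was -0.18 with median scaling and -0.52 with 75th percentile scaling, so part of these shifts lies in the scaling of all genes.

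Of the 33 genes given with values, 8 changed sign somewhere. With median scaling Dhrs1 was at 0.013, Dhrs13 at 0.037, Hsd17b12 at 0.25 and Hsd17b4 at 0.13. Akr1b10 was at 0.031 with median scaling, 0.0038 with an offset of 50 and 0.096 with the brightest or the detected probe. Aldh1a2 was at -0.16 with 75th percentile scaling and -0.073 with the brightest probe. With 1 mouse left out, Akr1b10 ranged from -0.074 to 0.011, Hsd17b12 from -0.15 to 0.029, Hsd17b4 from -0.21 to 0.058, Aldh1a1 from -0.63 to 0.23 and Dhrs3 from -0.097 to 0.024, and Hsd17b12 was at 0.0073 with both arrays left out. The causes were not tested. Genes under background limit what these arrays can show.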

Other observations

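Genes of steroid hormone synthesis and response, many of which act on the same substrates as the Akr1c and Hsd17b enzymes, were measured by name for 19 of 26 listed genes. Of these, 14 had a lower mean in day 5 CoRL and 5 a higher one, with a median log2 change of -0.16, and 11 were detected on no array. Hsd11b2, which inactivates glucocorticoids in the distal nephron, averaged a log2 level of 6.65 ± 0.34 in day 5 mice and 8.50 ± 0.24 in uninjured mice (SD, n = 4 each), a change of -1.85 with an adjusted p of 0.0036 by limma. Hsd3b2 fell, with a log2 change of -1.34 (adjusted p = 0.0245), and Hsd3b7, an enzyme of bile acid synthesis, rose by 1.01 (adjusted p = 0.0117). Markers of the thick limb, distal tubule and collecting duct were also lower in the mean on day 5 in 12 of 13 measured genes, with a median log2 change of -0.85, and the part of distal nephron RNA in the Hsd11b2 values was not tested.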
